A study of Homo sapiens with 2 samples.

Results

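The trypsin-like serine protease family was described here in the human liver cancer line PLC with and without overexpression of its member PRSS35. Members were the genes whose symbol is PRSS, TMPRSS or KLK followed by a number and at most 1 letter, together with HPN, ST14, HGFAC, CORIN and HTRA1 to HTRA4. The rule found 65 genes among the 26228 gene names present in both libraries. They are 15 kallikreins (KLK), 18 type II transmembrane proteases (TMPRSS genes, HPN, ST14 and CORIN), 4 HTRA genes and 28 others (PRSS genes and HGFAC). No member shared a row with a neighbouring gene. TMPRSS11E had a second row on an alternate haplotype, listed at 0 and left out. Not every name on the list is a trypsin-like enzyme. PRSS30P is a pseudogene, and PRSS16 belongs to a separate family of serine peptidases related to carboxypeptidases. The study treats PRSS35 as an active enzyme of the trypsin type whose catalytic serine lies at another position than the one aligned with its paralog PRSS23, where PRSS35 has a threonine. The RNA values do not bear on its activity.

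Both groups were PLC cells grown in glucose-containing DMEM with serum. The EV group carried the empty lentiviral vector pCDH, and its genotype is labelled WT. The PRSS35 group, labelled PRSS35 over-expression, stably carried the same vector with the human PRSS35 coding sequence. Whether the lines were clones or pools, and which promoter drove the transgene, is not given in the sources used here. Each group had 1 library of total RNA, so the spread between cultures was not measured and p-values are not given.

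Typical trypsin-like proteases cut peptide bonds after lysine or arginine by means of a catalytic triad of histidine, aspartate and serine. Typically they are made as inactive zymogens that are opened by another protease. This does not hold for every member of the list, such as the HTRA genes. The kallikreins are secreted enzymes known from prostate, skin and salivary gland, while hepsin (HPN), matriptase (ST14) and matriptase-2 (TMPRSS6) are anchored in the plasma membrane. In liver, HPN is abundant in hepatocytes, TMPRSS6 restrains hepcidin, and HGFAC, a circulating enzyme, activates hepatocyte growth factor. PRSS35 and PRSS23 are paralogs that form a branch of their own.

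The coding sequences of this pair are shown around 2 codons of the active site, as they mark how PRSS35 stands apart from its paralog. Each stretch of 27 bases was read from GENCODE transcripts on GRCh37, the same assembly as hg19, on the plus strand, and lies in exon 2 of a transcript with 2 exons. Capitals mark the codon of the canonical histidine of the triad in PRSS23 and the codon aligned with it in PRSS35 (first pair), and likewise for the canonical serine (second pair). The histidine codon is number 175 in PRSS23, within the stretch at chr11:86519196-86519222, and number 169 in PRSS35, within the stretch at chr6:84233653-84233679. The serine position is codon 316 in PRSS23, within the stretch at chr11:86519619-86519645, and codon 346 in PRSS35, within the stretch at chr6:84234184-84234210.
PRSS23 histidine: ctcacagctgccCACtgcatacacgat
PRSS35 histidine: ctaactgctgccCACtgtgttcatgat
PRSS23 serine position: cagccaggggccAGCgggtctggggtc
PRSS35 serine position: gagtcgggctccACCggttcgggggtc
The histidine codon is the same in both genes. At the serine position PRSS23 has AGC, a serine codon, and PRSS35 has ACC, a threonine codon. Over 1128 aligned coding bases, 56.5% were identical. The annotated transcripts of the pair share 0 stretches of 50 bases, so reads of the PRSS35 transgene that match over such a length have no second place in PRSS23.

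Levels are FPKM, mapped fragments corrected for the length of the transcript and the size of the library, as the authors deposited them, with the lower and upper bound that Cufflinks puts around each value. These bounds reflect how well 1 library was counted and its fragments assigned, not differences between cultures. Changes are log2((FPKM in PRSS35 + 1) / (FPKM in EV + 1)), which understates the change of low genes. A gene was called expressed at a mean FPKM of at least 1, and the fold threshold was 2. By the interval widths of 624 loci, 1 fragment was worth the same in both libraries (median ratio 1.00). The cells had the profile of a liver line. All 11 hepatocyte markers were expressed, with SERPINA1 at 2528 FPKM in EV and 4239 in PRSS35 and ALB at 4.05 and 5.21. The summed FPKM in EV and PRSS35 was 0.173 and 0.339 for 7 pancreatic acinar markers, 0.0916 and 0.239 for 4 prostate markers, 0.0314 and 0.0304 for 5 keratinocyte markers and 0.0373 and 0.0307 for 4 endothelial markers. It was 1.75 and 2.03 for 5 fibroblast markers. Among 5 leukocyte markers, LYZ had 94.0 and 103.7 FPKM and the other 4, PTPRC included, were listed at 0 in both libraries.

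Most of the family was silent or nearly so. Of the 65 members, 35 (53.8%) were listed at 0 in both libraries, against 36.7% of all gene names. A further 15 had a mean FPKM under 0.1 and 7 one of 0.1 to 1. The remaining 8 (12.3%, against 42.4% of all names) were expressed: PRSS35, PRSS23, PRSS16, HTRA2, HTRA1, PRSS27, PRSS36 and HPN. They lie on 6 chromosomes, and neither the kallikreins nor the TMPRSS genes are among them.

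**Figure D1:**
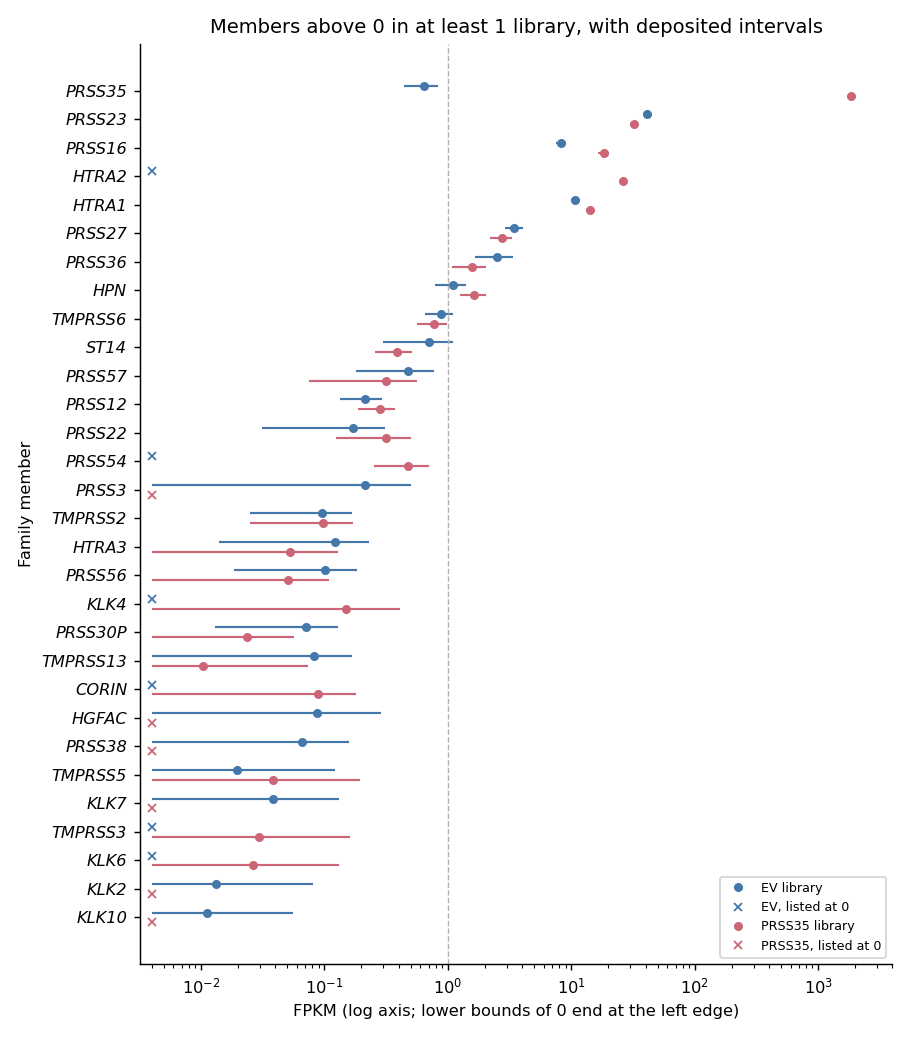
FPKM (log axis) of the 30 members above 0 in at least 1 library, with points for the EV and PRSS35 libraries, lines for the deposited intervals, crosses for values listed at 0 and a dashed line at 1 FPKM. PRSS35 moves from below the dashed line in EV to 1836 FPKM, while most other members have overlapping intervals.

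PRSS35, the overexpressed gene, lies on chromosome 6 from 84222194 to 84235421 (hg19) and kept its annotated locus in both libraries. Its level was 0.643 FPKM (interval 0.445 to 0.841) in EV and 1836 FPKM (interval 1759 to 1912) in PRSS35, a log2 change of 10.13. In EV it ranked 9 in the family and 11699 among all names. Its interval there overlapped those of HPN, TMPRSS6, ST14, PRSS57 and PRSS3, so its place among these 6 members is not resolved. In the PRSS35 library it ranked 1 in the family and 85 among all names. The coding sequence makes up 50.7% of the annotated PRSS35 transcript of 2444 bases. The transgene was cloned as coding sequence, whereas the deposited FPKM is scaled by the length of the whole transcript, so its level per coding base is not given by this value. The interval of PRSS35 in its own library spans 4.16% to either side and is wider than counting error alone at this level would make it.

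PRSS23, a secreted protease and the paralog of PRSS35, was the most abundant member in EV. Its FPKM was 41.0 (interval 38.5 to 43.5) in EV and 32.3 (interval 30.1 to 34.5) in PRSS35. The value with PRSS35 was lower and the intervals did not overlap. The log2 change was -0.33, short of 2-fold, and -0.29 when each library was divided by its sum over named loci. It became 0.36 when each library was divided by its total FPKM, and the intervals were then apart in the other direction. That scaling moves the median change of expressed genes from 0.06 to 0.67, and relative to this median PRSS23 lay at -0.40 without it and at -0.32 with it. The PRSS23 locus on chromosome 11, from 86502101 to 86663945, was assembled from the reads in both libraries. It reaches into FZD4, which was listed at 0 in EV and at 1.21 in PRSS35, and the part of this overlap in the difference was not tested. PRSS23 was 63.7 times as high as PRSS35 in EV, and PRSS35 was 56.9 times as high as PRSS23 in the PRSS35 library.

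**Figure D2:**
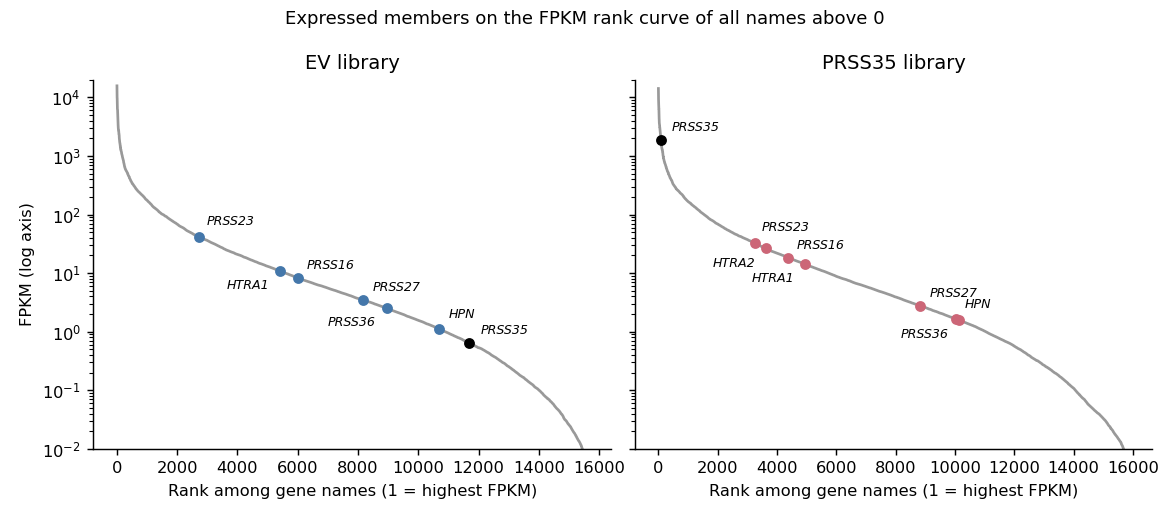
FPKM (log axis) against rank among all gene names above 0 in the EV library (left) and the PRSS35 library (right), as a grey line, with the expressed members as points and PRSS35 in black. PRSS35 goes from rank 11699 to rank 85, PRSS23 is at rank 2738 and 3253, and HTRA2 has no point in EV, where it is listed at 0.

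The summed FPKM of the family was 71.2 in EV and 1936 in PRSS35, with PRSS35 itself at 0.904% and 94.8% of it. Without PRSS35 the sums were 70.5 and 100.3. This difference rests on HTRA2, as the sums were 70.5 and 74.0 without it. Changes in both directions lie within these sums. PRSS16 went from 8.30 to 18.4 FPKM and HTRA1 from 10.8 to 14.2, while PRSS23 went from 41.0 to 32.3. PRSS23 made up 58.1% of the sum without PRSS35 and HTRA2 in EV and 43.6% in the PRSS35 library.

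Past the 2-fold threshold, 2 of the 7 expressed members other than PRSS35 were higher with PRSS35 and 0 were lower. Of all 11118 expressed genes, 303 were higher (2.73%) and 276 lower (2.48%), or 5.21% in either direction. With loci that join several genes left out, a step that removes no member, the shares were 1.89%, 1.9% and 3.79%. Dividing by the total FPKM gave 1256 higher and 178 lower genes. The 2 members were HTRA2, which is listed at 0 in EV, and PRSS16, which is at the threshold. Intervals were apart for 4 of the 7, 3 of them higher (HTRA1, HTRA2 and PRSS16) and 1 lower (PRSS23), when 25.2% of all expressed genes were higher with intervals apart and 15.5% lower, 40.7% in all, or 38.9% without joined loci. Restricted to genes above 0 in both libraries, 1 of 6 members (PRSS16) was past 2-fold, against 1.84% of such genes higher and 1.5% lower, 3.34% in all. Of these 6, 2 were higher and 1 lower with intervals apart, against 24.8% and 14.8% of such genes, 39.6% in all. The median log2 change of the 6 members above 0 in both libraries was 0.04, against 0.06 for all 10903 such genes. The share of members with intervals apart is above that of all genes by about 1 gene, and this was not tested.

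**Figure D3:**
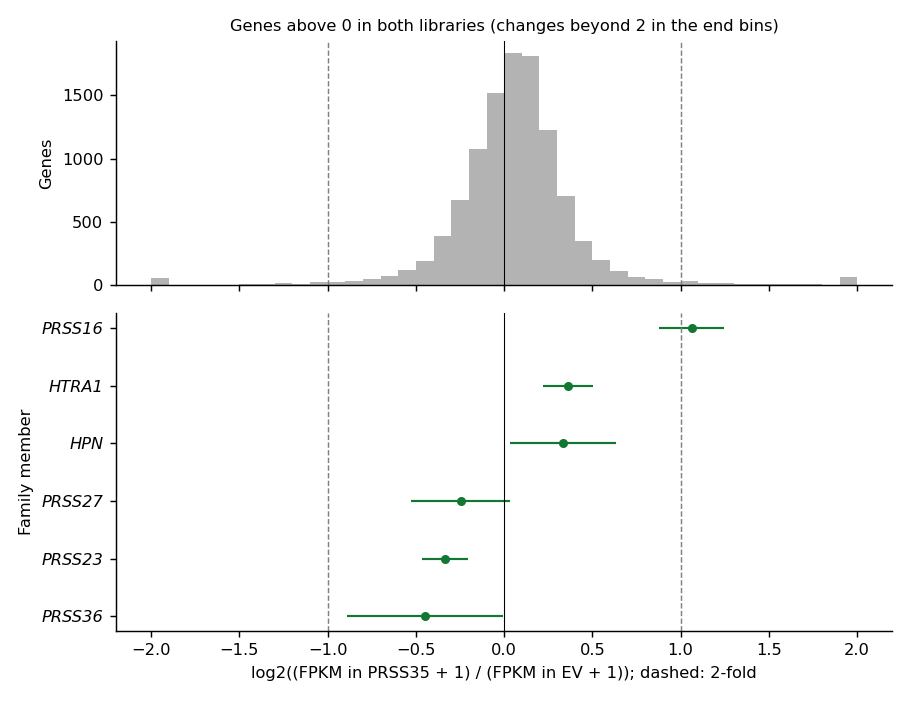
Top, histogram of the log2 change of the 10903 expressed genes above 0 in both libraries. Bottom, log2 change of the 6 expressed members above 0 in both libraries other than PRSS35, with bars for the half-width combined from both deposited intervals and dashed lines at 2-fold. PRSS16 lies on the 2-fold line and the other 5 members between -0.45 and 0.36. With division by the total FPKM, PRSS23, PRSS27 and PRSS36 are above 0 but below the median of all expressed genes, which is then 0.67.

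The HTRA proteases share the trypsin fold and carry a PDZ domain. HTRA1, a secreted member that degrades matrix proteins, had 10.8 FPKM (interval 9.94 to 11.7) in EV and 14.2 (interval 13.2 to 15.2) in PRSS35. It was higher with PRSS35, with a log2 change of 0.36, and the intervals did not overlap. The locus on chromosome 10 kept its annotation in both libraries. The log2 change ran from 0.28 to 1.02 over the other pseudocounts and scalings, and the highest value came from dividing by the total FPKM. Relative to the median of all expressed genes the change was then 0.34, and 0.30 without that scaling.

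HTRA2, a protease of the mitochondrial intermembrane space that promotes cell death once released, was listed at 0 in EV and at 26.3 FPKM (interval 24.7 to 28.0) in PRSS35. No fold is given against a value of 0. The EV locus, on chromosome 2 from 74756532 to 74760683, carries the identifier of a locus assembled from the reads of that same library. It overlaps AUP1, with 295.3 FPKM in EV and 236.5 in PRSS35, and LOXL3, listed at 0 in both. In the annotation, 32.3% of the exonic bases of HTRA2 are shared with exons of these neighbours. Of all expressed genes, 1.93% were listed at 0 in 1 library. HTRA3 had 0.122 and 0.0524 FPKM with overlapping intervals, and HTRA4 was at 0 in both libraries.

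PRSS16, the thymus-specific serine protease, had 8.30 FPKM (interval 7.54 to 9.07) in EV and 18.4 (interval 16.5 to 20.4) in PRSS35. With PRSS35 it was 2.22 times as high and the intervals did not overlap. In EV it lay below HTRA1 and in PRSS35 above it, in both cases with intervals apart. The log2 change was 1.06. It fell below the threshold with a pseudocount of 5 FPKM (0.82) and, at 0.9991, when centred on the median change. The locus on chromosome 6, from 27215502 to 27224399, was assembled in both libraries and overlapped no other locus.

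For PRSS16, the interval gives another reading than the level. If counting error alone set the half-width, the square of 2 times FPKM over the half-width would be the number of fragments. The intervals of PRSS16 correspond to 468.0 fragments in EV and 361.9 in PRSS35, although the FPKM was higher in PRSS35. Per unit of FPKM this is 56.4 and 19.6 fragments, a ratio of 0.349. Leaving PRSS35 aside, for the 5 members with lower bounds above 0 in both libraries that kept their annotated locus in both libraries (HTRA1, PRSS12, PRSS22, PRSS57 and TMPRSS2), this ratio was between 0.986 and 1.003. For 7 members assembled in at least 1 library it ran from 0.349 in PRSS16 to 5.34 in ST14, with 1.91 in PRSS36 and values near 1 in TMPRSS6 (1.001), HPN (0.979), PRSS23 (1.03) and PRSS27 (0.904). PRSS35, on an annotated locus, had the lowest ratio of all these members, with 65.6 fragments per FPKM in EV and 1.26 in its own library (0.0192), at a level where the width no longer follows counting alone. Apart from PRSS35, FPKM and interval width diverged in PRSS16, PRSS36 and ST14. The part of assembly in the differences of the last 3 genes was not tested.

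**Figure D4:**
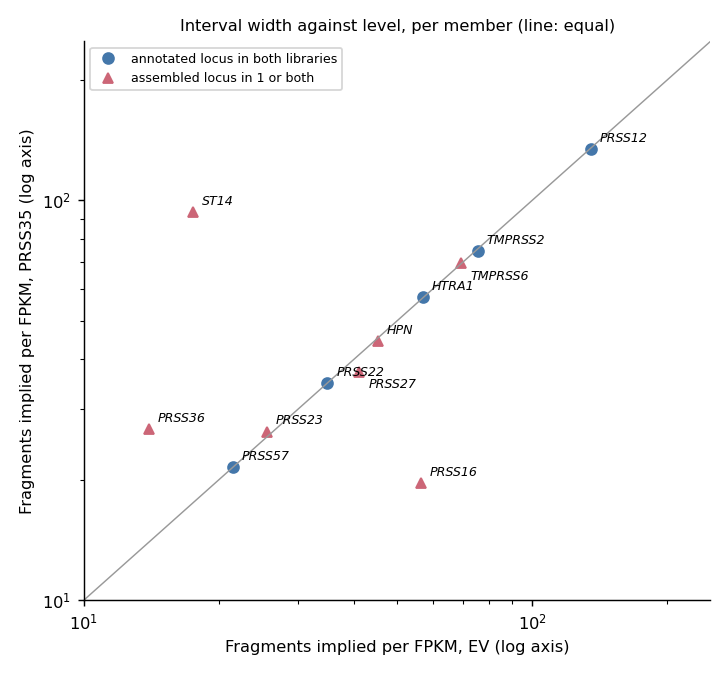
Fragments implied by the interval width per unit of FPKM in EV (x) and PRSS35 (y), both on log axes, for the 12 members other than PRSS35 with a lower bound above 0 in both libraries. Circles (annotated locus in both libraries) lie on the line of equality, while the triangles (assembled locus) of ST14, PRSS36 and PRSS16 lie away from it.

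Of the 18 type II transmembrane proteases, only HPN reached a mean of 1 FPKM. HPN had 1.10 FPKM (interval 0.788 to 1.41) in EV and 1.64 (interval 1.26 to 2.03) in PRSS35, a log2 change of 0.33 with overlapping intervals. After division by the total FPKM the change was 0.74 and the intervals were apart. Relative to the median of all expressed genes the change of HPN was then 0.06, and 0.27 without that scaling. With PRSS35 counted, this makes 6 members with intervals apart in place of 5. The share of all genes with intervals apart is not given on that scaling. PRSS23 is still counted among these 6, but as higher in place of lower. The low members in this and the next paragraphs were named after their values were seen. TMPRSS6 had 0.884 FPKM in EV and 0.776 in PRSS35, and its intervals overlapped as well. ST14 had 0.699 (interval 0.299 to 1.10) in EV, where it was assembled, and 0.388 (interval 0.259 to 0.517) in PRSS35. TMPRSS2, which primes several viral envelope proteins, had 0.0965 and 0.0976 FPKM. CORIN, which activates atrial natriuretic peptide, was at 0 in EV and 0.0887 in PRSS35 with a lower bound of 0. All 5 TMPRSS11 genes, neighbours within 677 kb of chromosome 4, and TMPRSS15, the enteropeptidase that activates trypsinogen in the gut, were at 0 in both libraries. In all, 10 of the 18 transmembrane proteases were at 0 in both.

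On the short arm of chromosome 16, 6 members lie within 146 kb. Of these PRSS27, a protease also called marapsin, was expressed, with 3.46 FPKM (interval 2.88 to 4.04) in EV and 2.76 (interval 2.22 to 3.31) in PRSS35. The intervals overlapped and the log2 change was -0.25, or 0.29 after division by the total FPKM. Relative to the median of all expressed genes PRSS27 lay at -0.31 without that scaling and at -0.38 with it. PRSS22 had 0.172 and 0.315 FPKM with overlapping intervals. PRSS30P had 0.0710 and 0.0236 FPKM, and PRSS21, PRSS33 and PRSS41 were at 0 in both. None of the 6 had intervals apart.

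A second group of 3 members lies within 67 kb further along chromosome 16. PRSS36, a secreted protein with several protease domains, had 2.50 FPKM (interval 1.66 to 3.35) in EV and 1.56 (interval 1.08 to 2.05) in PRSS35. Its intervals overlapped, with a log2 change of -0.45, or 0.02 after division by the total FPKM. Relative to the median of all expressed genes PRSS36 lay at -0.51 without that scaling and at -0.65 with it. Prostasin (PRSS8), which acts with matriptase in epithelia, and PRSS53 were at 0 in both libraries. PRSS53 carried the identifier of an assembled locus in both libraries and PRSS8 in the PRSS35 library, so these values of 0 stand on loci so labelled. The identifier alone does not show that reads fell on the gene itself. The same held for 5 members at 0 in EV (CORIN, HTRA2, PRSS53, TMPRSS4 and TMPRSS9) and 5 at 0 in PRSS35 (HGFAC, PRSS50, PRSS53, PRSS8 and TMPRSS9).

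PRSS54, on chromosome 16 from 58313901 to 58328951, was the 1 member among 22 low ones whose intervals were apart. It was listed at 0 in EV and at 0.476 FPKM (interval 0.253 to 0.698) in PRSS35, a width that corresponds to 18.3 fragments. Of all genes above 0 with a mean FPKM under 1, 10.9% had intervals apart, so 1 of 22 is no more than the background. The locus overlaps CCDC113, with 0.669 FPKM in EV and 0.761 in PRSS35, and 36.0% of the annotated exonic bases of PRSS54 are shared with it. PRSS57, a neutrophil granule protease, had 0.478 and 0.319 FPKM, and PRSS12, or neurotrypsin, had 0.215 and 0.281. Both had overlapping intervals.

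The kallikreins occupy 265 kb of chromosome 19, from 51322402 to 51587502. Of the 15 genes, 10 were at 0 in both libraries, KLK3, which encodes prostate-specific antigen, among them. KLK2, KLK7 and KLK10 were above 0 in EV only and KLK4 and KLK6 in PRSS35 only, each with a lower bound of 0. Their summed FPKM was 0.0632 in EV and 0.177 in PRSS35, and the highest single value was 0.150 for KLK4. Annotated sequence is in part shared within the cluster: 10.7% of the 50-base stretches of KLK9 transcripts also occur in KLK8. Both of these genes were at 0 in both libraries. No kallikrein was resolved from 0 in either library.

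The pancreatic trypsinogen PRSS1 was at 0 in both libraries. PRSS3, which encodes mesotrypsin, had 0.215 FPKM with a lower bound of 0 in EV and was at 0 in PRSS35. HGFAC had 0.0865 FPKM with a lower bound of 0 in EV and was at 0 in PRSS35. The 4 members on chromosome 3 within 122 kb (PRSS42, PRSS45, PRSS46 and PRSS50) were at 0 in both libraries. In all, 18 members were above 0 in both libraries, 6 in EV only and 6 in PRSS35 only.

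Genes that work with these proteases were read out from fixed lists. Of 24 inhibitors, 6 were expressed and 0 differed by 2-fold, against 5.21% of all expressed genes. Of the 6, 5 were higher with intervals apart, when 25.2% of all expressed genes were. SPINT2, a membrane-bound inhibitor of hepsin, matriptase and prostasin, had 249.3 FPKM in EV, at a locus joined with a neighbour, and 300.7 in PRSS35. Its relative SPINT1 had 0.101 and 0.135. Among 25 measured substrates and receptors, 9 were expressed and 0 differed by 2-fold, against the same 5.21%. On the deposited scale, 1 was higher and 1 lower with intervals apart, against 25.2% and 15.5% of all expressed genes. The higher one was fibronectin (FN1), a matrix protein, with 116.8 FPKM in EV and 125.9 in PRSS35. The lower one was TGFB1, the growth factor whose signalling HTRA1 can inhibit, with 227.8 and 170.9 FPKM. The log2 change was 0.11 for FN1 and -0.41 for TGFB1. The protease-activated receptor F2RL1 had 2.45 and 2.56. HGF and MST1, the growth factors that HGFAC and HPN activate, were at 0 in both libraries. The MST1 locus was an assembled one in both libraries, as for HTRA2 in EV, while HGF kept its annotated locus.

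Of 50 other genes for proteins with the trypsin fold, not all of them active proteases, 11 were expressed. Past 2-fold 1 was higher and 1 lower, against 2.73% and 2.48% of all expressed genes, and with intervals apart 6 were higher and 1 lower, against 25.2% and 15.5%. The pair past 2-fold were ACR and CTRL. ACR was at 0 in EV and at a joined locus of 4.74 FPKM in PRSS35. CTRL was at a joined locus of 37.7 FPKM in EV and at 0, on an assembled locus, in PRSS35. The hyaluronan-binding protease HABP2 had 34.2 and 52.6 FPKM and prothrombin (F2) 37.8 and 45.5. Of 9 proprotein convertases, which cut secretory precursors after basic residues, 6 were expressed. Past 2-fold there were 0, against 5.21% of all expressed genes. With intervals apart 3 were higher and 0 lower, against the same 25.2% and 15.5%. MBTPS1 had 13.3 FPKM in EV and 20.2 in PRSS35 with intervals apart, and FURIN had 238.0, at a joined locus, and 233.7.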

How the data were processed

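RNA from 1 EV and 1 PRSS35 library was analysed. Per the labels and the methods, the authors aligned reads to hg19 with TopHat2 2.1.0 and assembled and quantified transcripts with Cufflinks 2.2.1 in each library (the labels name Cuffdiff 2.2.1). The deposited values are FPKM per locus with bounds, and no counts. Annotation release and options are not given in the sources used here. Whether strand was used is not given either, so overlapping antisense genes cannot be told apart. Rows were split by comma-separated name, alternate haplotypes were dropped, and FPKM of rows with the same name was summed, with half-widths combined in quadrature. No test was possible with 1 library per condition. The members and lists were chosen with earlier results of these data known. Named were members with a mean FPKM of at least 1, PRSS35, PRSS23, members on joined loci (0) and those with intervals apart. Of the members, 62 were found by name in GENCODE v44lift37 (GRCh37). Alternatives were pseudocounts of 0.1 and 5, 4 scalings, the highest locus per name, no joined loci, other filters (none, 5 FPKM) and 1.5-fold. Python 3.11.15, numpy 2.4.6, pandas 2.3.3 and matplotlib 3.10.9 were used.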

Additional observations from a re-analysis of the deposited data

How the results depend on the processing

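No paired analysis was possible because there is 1 library per group. In place of 10.13, PRSS35 had a log2 change of 11.27 at a pseudocount of 0.1 FPKM, 8.35 at 5 FPKM and 10.61 after division by the total FPKM. The last scaling also moved the median of the 8 expressed members from 0.35 to 0.88 and the log2 ratio of the summed family without PRSS35 from 0.51 to 1.22. Without HTRA2 this ratio was 0.069. The median of the members, PRSS35 included, was -0.018 with no filter and 1.06 at a mean of at least 5 FPKM. It was 5.24 for the 2 expressed members above 0 and annotated in both libraries, with 1 past 2-fold and 2 with intervals apart. These 2 are HTRA1 (0.36) and the overexpressed PRSS35 (10.13), so this median mostly reflects the overexpression. The number of all genes past 2-fold, 579, became 354 with a pseudocount of 5, 1434 with division by the sum, 367 without joined loci, 371 at a mean of at least 5 FPKM, 1056 at 1.5-fold, 364 among genes above 0 in both libraries and 15 among those also annotated in both. The last restrictions, and leaving out HTRA2, were chosen after seeing the data. Summed over all loci, FPKM was 2469030 in EV and 1508529 in PRSS35, against 856880 and 831520 over named loci. Division by the sum over named loci gave log2 changes of -0.29 for PRSS23, -0.21 for PRSS27 and -0.42 for PRSS36. Division by the upper quartile gave -0.39, -0.29 and -0.49 for the same genes. The cause of the shifts between settings was not tested, apart from the number of genes or the threshold where that was what changed. Otherwise the family, PRSS35 included, had between 2 and 4 members past 2-fold and between 4 and 6 with intervals apart. The setting with 4, genes above 0 in both libraries, had 39.6% of all genes with intervals apart. This share is not given for the settings with 6. Total depth is unknown, and members under 0.1 FPKM rest on a few fragments.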
